A study of Rattus norvegicus with 9 samples.

Results

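The genes of transforming growth factor beta (TGF-beta) and bone morphogenetic protein (BMP) signaling were compared in 3 kinds of rat retinal progenitor cell (RPC) preparation on Affymetrix Rat Genome 230 2.0 arrays. The genes were chosen by symbol: the BMPs and their receptors, the TGF-beta ligands with their receptors and induced genes, and the Smads and Smurfs. The rule also took the activin (inhibin beta) subunits, the activin receptors, the growth differentiation factors, Id1 to Id4 and the latent TGF-beta binding proteins. Grem1, Nog, Chrd, Fst and Bambi completed it. Of 14217 genes with a probe set that names 1 symbol, 55 met this rule, measured by 89 probe sets. The probe set of highest mean over the 9 arrays stood for each gene. 2 probe sets that name both Gdf1 and Cers1 were left out. The receptor genes Tgfbr2 and Bmpr1b, whose symbols fit the rule, were not among the 55. Inha, the inhibin alpha subunit gene, was outside the rule.

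P-RPC came from neural retinas that were taken from SD rats 1 day after birth (postnatal day 1), dissociated with papain and taken for RNA with no sort described. rESC-RPC1 and rESC-RPC2 were both differentiated from 1 embryonic stem cell line, DA8-16, of the DA rat, as floating aggregates (SFEBq). The medium held Matrigel together with the Wnt inhibitor IWR-1e until day 8, and fetal bovine serum from day 8 to harvest on day 16. rESC-RPC1 were plated for adherent culture on day 10 and given N2 medium with serum on day 14, while rESC-RPC2 floated until they were plated on day 14. Each group had 3 arrays, which the study's methods call independent experiments. Between P-RPC and either culture, strain, animal tissue against culture and cell type cannot be told apart. Between the cultures, the time spent adherent and the change of medium cannot be told apart.

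Values are MAS5 signals, the linear brightness of a probe set after scaling of each array, and the detection threshold was set at 123, the median over all probe sets and arrays. A gene was tested when at least 3 of 9 arrays reached that threshold. It was called when limma's Benjamini-Hochberg adjusted p over 9956 genes was under 0.05 and the fold change was at least 2. Arrays of a group correlated at 0.95 to 0.99, and rESC-RPC1 replicates 2 and 3 stood apart most, with 220 and 160 genes at least 2-fold away from both other arrays of that group. Lens crystallin and fiber genes were far higher on P-RPC replicate 1, at a mean log2 signal of 12.37, than on P-RPC replicates 2 and 3, at 5.44 and 6.78. Of 13 retinal progenitor markers on the array, 12 were detected on all 3 P-RPC arrays, and 11 and 10 on all 3 arrays of rESC-RPC1 and rESC-RPC2. Of 12 of them that were tested, rESC-RPC1 had 8 called below P-RPC, 1 above and 3 not called. For rESC-RPC2 these counts were 10, 0 and 2. Pax6 and Rax, which the paper lists among eye field transcription factors, were called lower in both cultures. Pax6 reached the threshold on every P-RPC array, on replicate 2 only of rESC-RPC1 and on no rESC-RPC2 array. Its fall in rESC-RPC2 was at least 114-fold. The log2 fold change of Rax against P-RPC was -4.34 for rESC-RPC1 and -5.17 for rESC-RPC2. Sox2 was called in neither culture. RNA came from whole preparations, so fewer cells of a type and less RNA per cell cannot be told apart.

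Both branches of this pathway begin with a secreted dimeric ligand that brings together type I and type II receptor kinases. Smad2 and Smad3 carry the TGF-beta and activin signal into the nucleus and Smad1, Smad5 and Smad9 the BMP signal, each with Smad4, while Smad6, Smad7, the Smurf ubiquitin ligases and the pseudoreceptor Bambi limit it. Secreted antagonists such as noggin and follistatin hold ligands away from receptors, latent TGF-beta binding proteins tether the ligand to matrix, and the Id genes are well known BMP targets. In the eye, BMP4 is known for patterning the dorsal retina, BMP7 for early eye growth and closure of the optic fissure, and GDF11 for limiting the number of ganglion cells.

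Of the 55 genes, 43 passed the filter and 27 of these were called in at least 1 comparison. In rESC-RPC1 against P-RPC 20 of 43 were called, 14 higher and 6 lower, which is 46.5% where 21.5% of all genes tested were called, 12.0% higher and 9.56% lower. In rESC-RPC2 against P-RPC 18 were called, 12 higher and 6 lower, or 41.9% where the share of all genes was 23.7%, with 10.7% higher and 13.0% lower. In rESC-RPC2 against rESC-RPC1 9 were called, 1 higher and 8 lower, or 20.9% where all genes gave 14.3%, with 5.02% higher and 9.25% lower. The median log2 fold change of the 43 genes was 0.61, 0.18 and -0.25 in these comparisons, beside -0.01, -0.02 and -0.03 over all genes. Bmp7, Inhbb and Tgfbi reached the threshold in a single group and so had to differ to be tested. Gdf10, Inhba, Ltbp2, Nog, Smad9 and Tgfb3 reached it on no P-RPC array, passed through the cultures and could come out only higher against P-RPC. Bmp2 and Grem1 reached it on no rESC-RPC2 array and could come out only lower in that group. These counts are a description.

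**Figure D1:**
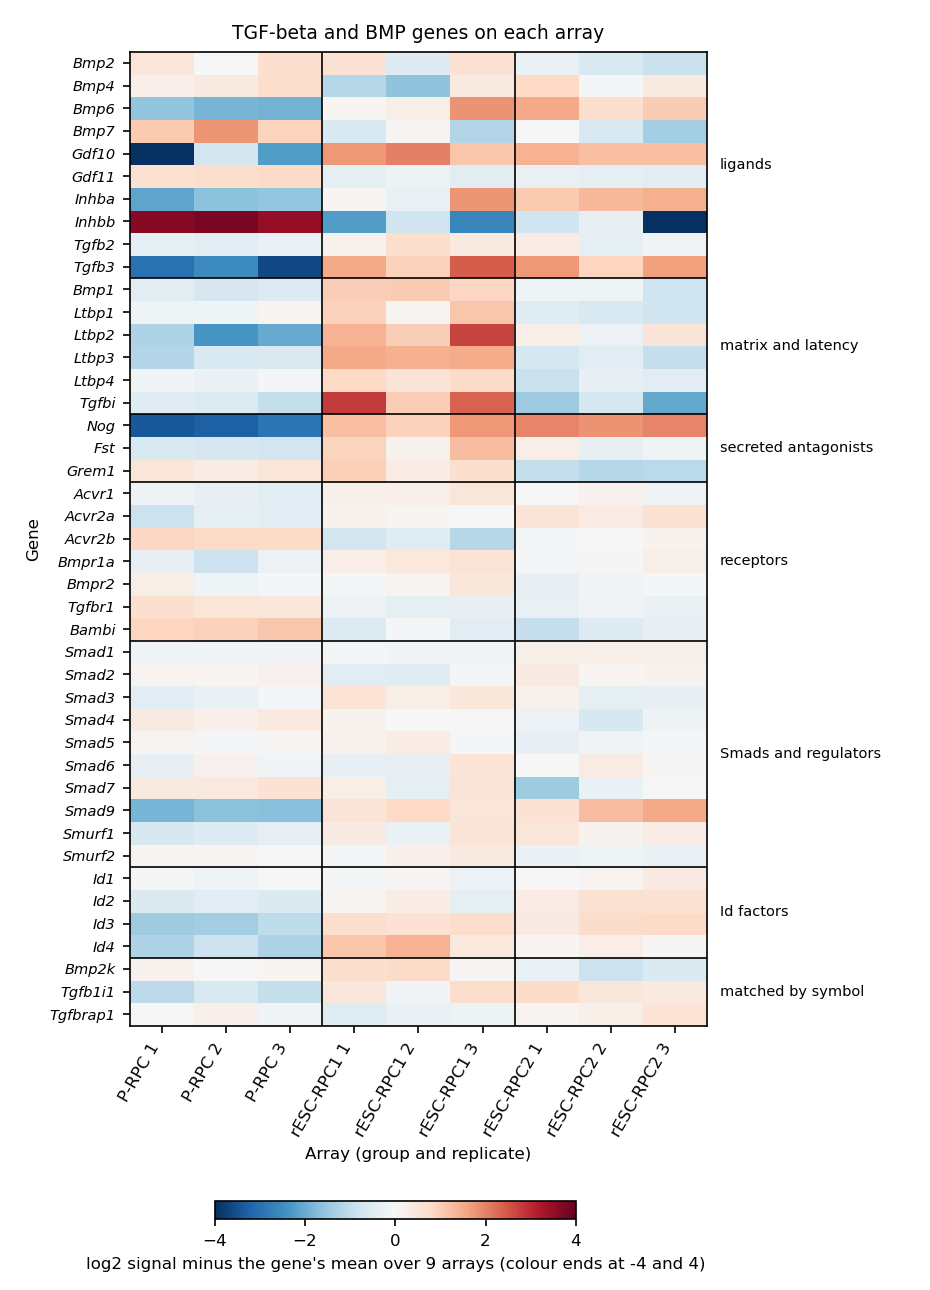
Log2 signal of the 43 tested genes (rows, by role) on each of the 9 arrays (columns, by group and replicate), as the difference from the gene's mean over the arrays, with colours ending at -4 and 4. Nog and Tgfb3 are higher and Inhbb is lower on all 6 culture arrays than in P-RPC, and the 6 matrix and latency genes are higher in rESC-RPC1 than in rESC-RPC2.

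10 genes were called higher in both cultures: the ligand genes Bmp6, Gdf10, Inhba and Tgfb3, the latency gene Ltbp2, the antagonist gene Nog, Smad9, Id3, Id4 and Tgfb1i1. 4 genes were called lower in both: Bmp7, Gdf11, Inhbb and Bambi. Markers of other cells of the eye were also detected in P-RPC and not in the cultures: 6 of 11 microglia and macrophage genes and 3 of 15 lens genes reached the threshold on all 3 P-RPC arrays and none of these 9 on any culture array. They passed the filter through P-RPC and could come out lower only. Of 7 tested pigment epithelium genes, 2 of which (Tyr and Tyrp1) passed the same way, 2 were called higher and 5 lower in rESC-RPC1, and 0 higher and 6 lower in rESC-RPC2. The part of such cells in the results was not tested. Both comparisons use the same 3 P-RPC arrays, so they are not independent of each other. 16 genes were called in no comparison, among them Smad1 to Smad6, both Smurfs, Bmpr1a, Bmpr2, Acvr1, Tgfbr1 and Id1.

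**Figure D2:**
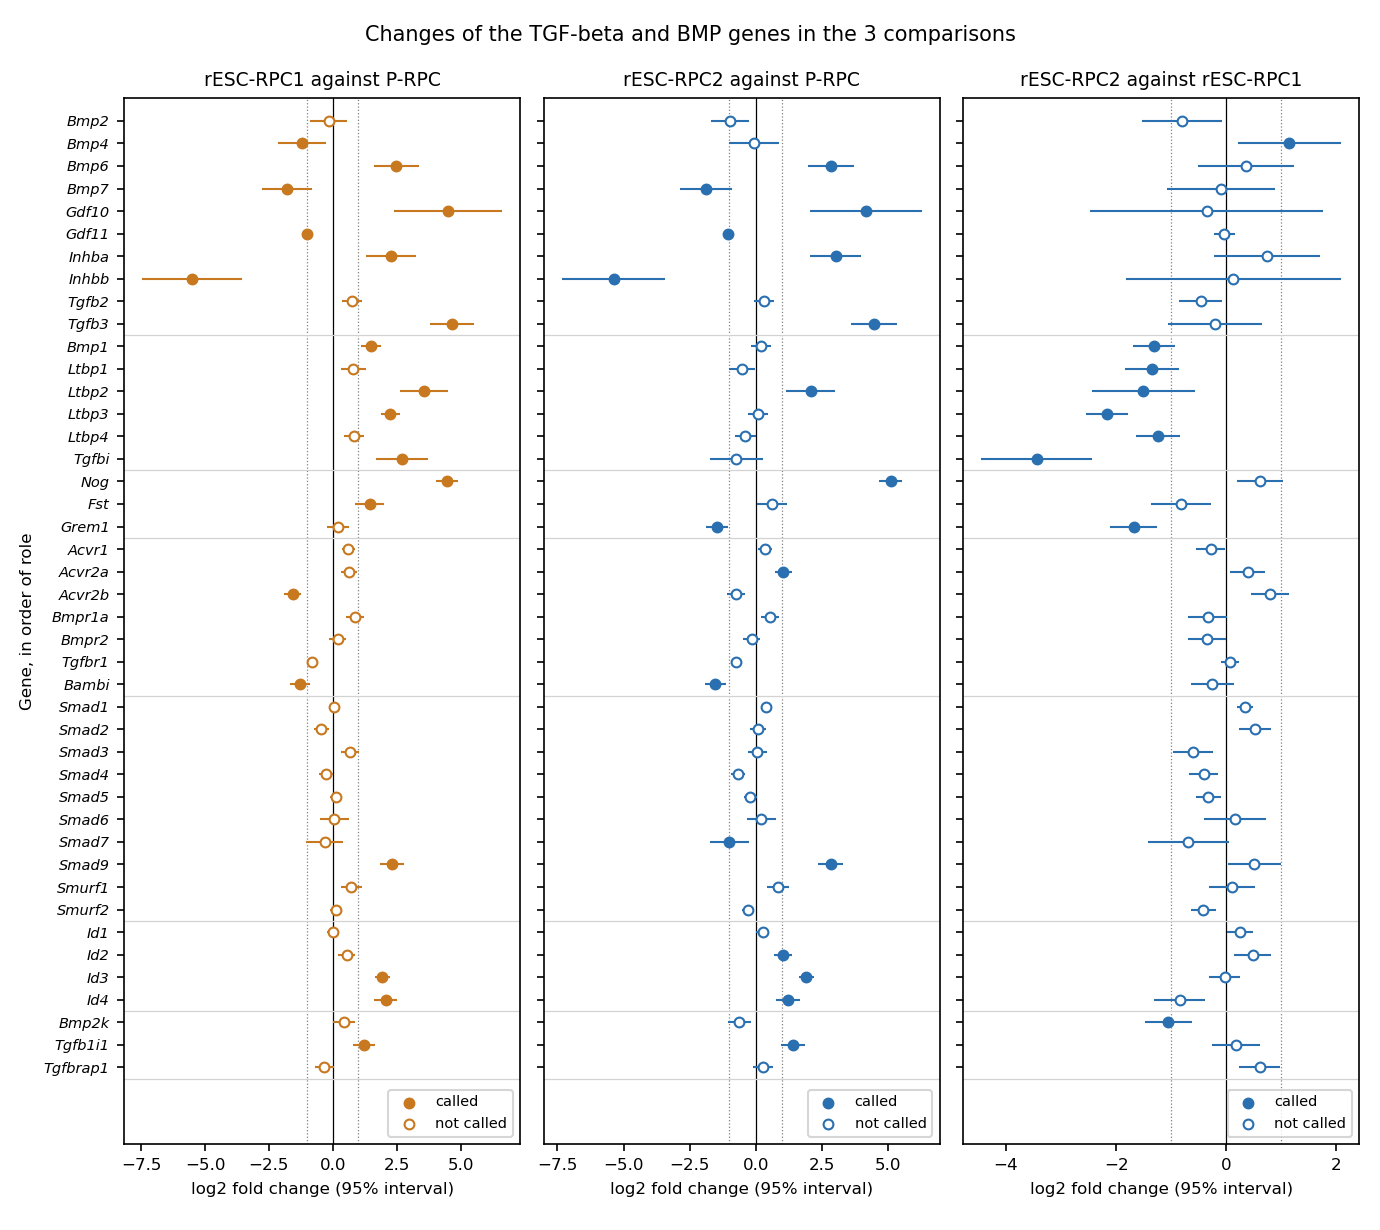
Log2 fold change with its 95% interval (horizontal axis) of each tested gene (vertical axis, by role) in the 3 comparisons, filled where called and open where not, with dotted lines at -1 and 1. All 6 matrix and latency genes are called lower in rESC-RPC2 against rESC-RPC1, and Smad1 to Smad6 are open in every panel. Where a whole group is under the detection threshold the plotted value rests on signals near background.

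Of the 13 genes that moved the same way in both cultures and had a promoter window, the 5 with a match to a known Smad motif are shown, chosen for that match. Windows are the 250 bases before the 1 start per gene that the RefSeq promoter table (build GRCr8) uses, written 5′ to 3′ on the gene's strand, and 46 of the 55 genes matched one, all but Acvr1, Acvrl1, Bmp1, Bmp2, Bmp7, Fst, Gdf6, Smad6 and Smurf1. The motifs searched on both strands were GTCTAGAC (the Smad palindrome), GGCGCC (a GC-rich element bound by Smad1 and Smad5, its own reverse complement) and CAGACA (the Smad box). That start is the outermost start of the gene in RefSeq for 19 of the 46 windows, Nog, Smad9, Bambi and Inhbb among them, and lies inside the gene for 27, by 78 bases for Gdf10 and 38 for Id3 and by up to 110297 bases, for Bmp6. Capitals mark the matches. Of the genes higher in both cultures, Nog (chr10:74627502-74627751, minus strand) had GGCGCC starting 51 bases before the table's start, Gdf10 (chr16:9243262-9243511, plus strand) had it at 53, and Smad9 (chr2:141106418-141106667, plus strand) had it at 15 and a Smad box on the other strand, written TGTCTG, at 244.
Nog: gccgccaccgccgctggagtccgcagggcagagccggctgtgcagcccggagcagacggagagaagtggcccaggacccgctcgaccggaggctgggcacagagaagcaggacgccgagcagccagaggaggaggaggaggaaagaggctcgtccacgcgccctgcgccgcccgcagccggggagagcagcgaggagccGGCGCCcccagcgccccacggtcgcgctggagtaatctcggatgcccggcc
Gdf10: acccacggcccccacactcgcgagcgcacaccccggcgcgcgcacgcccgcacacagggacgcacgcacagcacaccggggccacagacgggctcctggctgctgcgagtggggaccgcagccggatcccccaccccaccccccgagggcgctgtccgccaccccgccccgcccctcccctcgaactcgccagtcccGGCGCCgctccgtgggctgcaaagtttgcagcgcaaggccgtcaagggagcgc
Smad9: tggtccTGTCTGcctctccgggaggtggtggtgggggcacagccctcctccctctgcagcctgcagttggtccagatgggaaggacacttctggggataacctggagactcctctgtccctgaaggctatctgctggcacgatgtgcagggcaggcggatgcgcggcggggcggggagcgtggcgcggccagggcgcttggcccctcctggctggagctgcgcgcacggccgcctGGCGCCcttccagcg

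Of the genes lower in both cultures, Bambi (chr17:58821004-58821253, minus strand) had GGCGCC starting 74 bases before its start and Inhbb (chr13:33089374-33089623, minus strand) had it at 203 and at 26.
Bambi: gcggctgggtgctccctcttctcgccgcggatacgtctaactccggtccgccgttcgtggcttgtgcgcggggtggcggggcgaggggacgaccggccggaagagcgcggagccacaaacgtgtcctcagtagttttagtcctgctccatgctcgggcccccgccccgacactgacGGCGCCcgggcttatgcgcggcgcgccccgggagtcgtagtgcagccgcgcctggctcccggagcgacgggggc
Inhbb: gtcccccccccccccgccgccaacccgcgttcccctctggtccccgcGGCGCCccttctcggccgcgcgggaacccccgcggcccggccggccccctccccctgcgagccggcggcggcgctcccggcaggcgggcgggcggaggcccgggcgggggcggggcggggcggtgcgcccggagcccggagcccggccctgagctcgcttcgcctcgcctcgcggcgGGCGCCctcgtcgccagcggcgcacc

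Of the other genes higher in both cultures, Bmp6, Inhba, Ltbp2, Tgfb1i1, Tgfb3, Id3 and Id4 had none of the 3 motifs in this window, and Gdf11, which was lower, had none either. The window of Id3 (chr5:153656041-153656290, plus strand) is shown as one without a match.
Id3: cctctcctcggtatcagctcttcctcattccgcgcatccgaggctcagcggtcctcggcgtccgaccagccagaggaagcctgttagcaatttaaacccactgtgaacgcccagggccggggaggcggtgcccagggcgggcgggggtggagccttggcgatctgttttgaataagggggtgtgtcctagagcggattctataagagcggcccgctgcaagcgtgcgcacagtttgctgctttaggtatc

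GGCGCC was present in 13 of the 46 windows, or 28.3%, where 9.24% of 27457 rat promoters of the same length held it. The median GC content of these windows was 65.2%, beside 52.0% over all promoters. CAGACA was present in 4, or 8.7%, where 16.9% of all promoters held it, and GTCTAGAC was present in none, where 0.186% of all promoters held it. A match is a run of letters and not a measured binding site.

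Among the ligands, Tgfb3 and Inhba, which encode a TGF-beta ligand and the activin A subunit, were at background in P-RPC and detected on every array of both cultures. Tgfb3 had signals of 39.3, 52.5 and 25.2 in P-RPC, 884, 589 and 1649.5 in rESC-RPC1 and 1032, 562 and 971 in rESC-RPC2. Relative to P-RPC, the signal was higher by at least 7.76-fold in rESC-RPC1 (limma adjusted p = 3.7e-06) and by at least 6.74-fold in rESC-RPC2 (4.53e-06), with no overlap of arrays. These bounds divide the mean of the bright group, taken on the log2 scale, by the detection threshold. Inhba had signals of 44.4, 60.7 and 65.0 in P-RPC, 199, 153 and 647 in rESC-RPC1 and 396, 463 and 503 in rESC-RPC2. All culture arrays lay above all P-RPC arrays, by group at least 2.20-fold in rESC-RPC1 (adjusted p = 0.00115) and 3.69-fold in rESC-RPC2 (0.000163), and the methods' t-test after adjustment ended the first call (0.0528). The high rESC-RPC1 array was replicate 3, and without it Inhba was called higher in rESC-RPC2 than in rESC-RPC1, with a log2 fold change of 1.37 (adjusted p = 0.000731), where it was 0.74 ± 0.44 (SE) with all arrays and not called (0.185). A second Inhba probe set above the filter was also called higher in both cultures, in the limma fit over probe sets. Its log2 fold changes were 1.15 (adjusted p = 0.0381) and 1.41 (0.0145), and rESC-RPC1 replicate 2 lay within the range of P-RPC.

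Inhbb, which encodes the activin B subunit, went the other way. Signals were 566, 617 and 518 in P-RPC, 9.72, 26.4 and 7.55 in rESC-RPC1 and 26.2, 36.4 and 2.64 in rESC-RPC2. Every P-RPC array was far above every culture array, and the gene was at least 4.61-fold lower in rESC-RPC1 (adjusted p = 0.000356) and in rESC-RPC2 (0.000378). So of the 2 activin subunit genes measured, Inhbb was detected in the neonatal retina and Inhba in the cultures.

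Bmp6, a BMP ligand gene, had signals of 125, 103 and 100.2 in P-RPC, 393, 438 and 1307 in rESC-RPC1 and 1069.9, 594 and 746 in rESC-RPC2. The log2 fold change was 2.48 ± 0.39 (SE) in rESC-RPC1 (adjusted p = 0.000337) and 2.84 ± 0.39 in rESC-RPC2 (0.000122), and no culture array overlapped P-RPC. In P-RPC, replicate 1 alone reached the threshold, and by little, so the size of both changes rests on signals near background. The high rESC-RPC1 array was replicate 3. The second Bmp6 probe set above the filter was called higher in both cultures too. Gdf10, also known as BMP3B, had signals of 1.61, 49.6 and 17.8 in P-RPC, all at background, 277, 337 and 180.0 in rESC-RPC1 and 216, 192 and 192 in rESC-RPC2. The increase was at least 2.09-fold in rESC-RPC1 (adjusted p = 0.00207) and 1.63-fold in rESC-RPC2 (0.00316), and the methods' t-test with Benjamini-Hochberg adjustment ended both calls (adjusted p = 0.0708 and 0.072).

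Bmp7 and Gdf11 were lower in both cultures. Bmp7 had signals of 143, 235 and 129 in P-RPC, 45.6, 72.8 and 30.8 in rESC-RPC1 and 68.5, 45.4 and 27.0 in rESC-RPC2, so the cultures lay under the threshold and P-RPC just above it. The decrease was at least 1.33-fold in rESC-RPC1 (adjusted p = 0.00496) and in rESC-RPC2 (0.00343). Gdf11 had signals of 2237, 2364 and 2468 in P-RPC, 1129, 1263 and 1101 in rESC-RPC1 and 1178, 1139.5 and 1093 in rESC-RPC2. Its log2 fold change was -1.02 ± 0.085 (SE, adjusted p = 3.74e-06) in rESC-RPC1 and -1.05 ± 0.085 (2.65e-06) in rESC-RPC2. The 3 P-RPC arrays were clear of all 6 culture arrays, but the change was close to the 2-fold limit and fell short of it under median centring of the arrays in both comparisons, and in rESC-RPC1 also without P-RPC replicate 3 (-0.98) or rESC-RPC1 replicate 3 (-0.98) and, by less, without rESC-RPC1 replicate 1.

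The Bmp4 calls depended on single arrays. It had signals of 291, 323 and 409 in P-RPC, 115, 82.5 and 322 in rESC-RPC1 and 436, 239 and 319.6 in rESC-RPC2. rESC-RPC1 replicate 3 lay within the range of P-RPC and of rESC-RPC2, while the other rESC-RPC1 arrays were under the threshold. Bmp4 was called lower in rESC-RPC1, compared with P-RPC (log2 fold change -1.22 ± 0.42 (SE), adjusted p = 0.0293) and higher in rESC-RPC2 than in rESC-RPC1 (1.15 ± 0.42, 0.0456). Without rESC-RPC1 replicate 3 these were -1.79 (adjusted p = 0.000218) and 1.72 (0.000411), and without rESC-RPC1 replicate 2 they were -0.81 (0.0865) and 0.74 (0.132), neither called. The first call was also lost without rESC-RPC1 replicate 1 (0.0981) or P-RPC replicate 2 (0.0643) or 3 (0.0948), and the second without any array other than rESC-RPC1 replicate 3 and rESC-RPC2 replicate 2, at adjusted p from 0.0586 to 0.145. Neuron markers were higher with Bmp4 between the cultures, 7 of 10 tested (Syt1 through rESC-RPC2 alone) being called higher in rESC-RPC2. Within each culture that order was not shared. Bmp4 was highest on rESC-RPC1 replicate 3 and rESC-RPC2 replicate 1. On those arrays the mean log2 signal of the neuron list was the lowest of its group, at 9.87 and 11.36. The part of neurons in the Bmp4 result was not tested. In rESC-RPC2 against P-RPC the log2 fold change of Bmp4 was -0.07, with a 95% interval from -1.01 to 0.87.

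Tgfb2, which encodes the other TGF-beta ligand detected, was not called in any comparison. P-RPC had a signal of 1401 ± 91.4, rESC-RPC1 of 2407 ± 461 and rESC-RPC2 of 1767 ± 446 (mean ± SD, n = 3 each), and the log2 fold change between the first 2 groups was 0.77 ± 0.18 (SE, adjusted p = 0.00348), under the 2-fold limit. Bmp2 stayed near the threshold, with means of 172 ± 41.2, 159 ± 59.8 and 87.2 ± 18.6 in the same order, and every rESC-RPC2 array was under it. It was not called either, with a fall of at least 1.37-fold from P-RPC to rESC-RPC2 (adjusted p = 0.024). It was called lower there without P-RPC replicate 2 (0.0209) or rESC-RPC2 replicate 1 (0.0254), and between the cultures without rESC-RPC1 replicate 2 (0.00429).

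**Figure D3:**
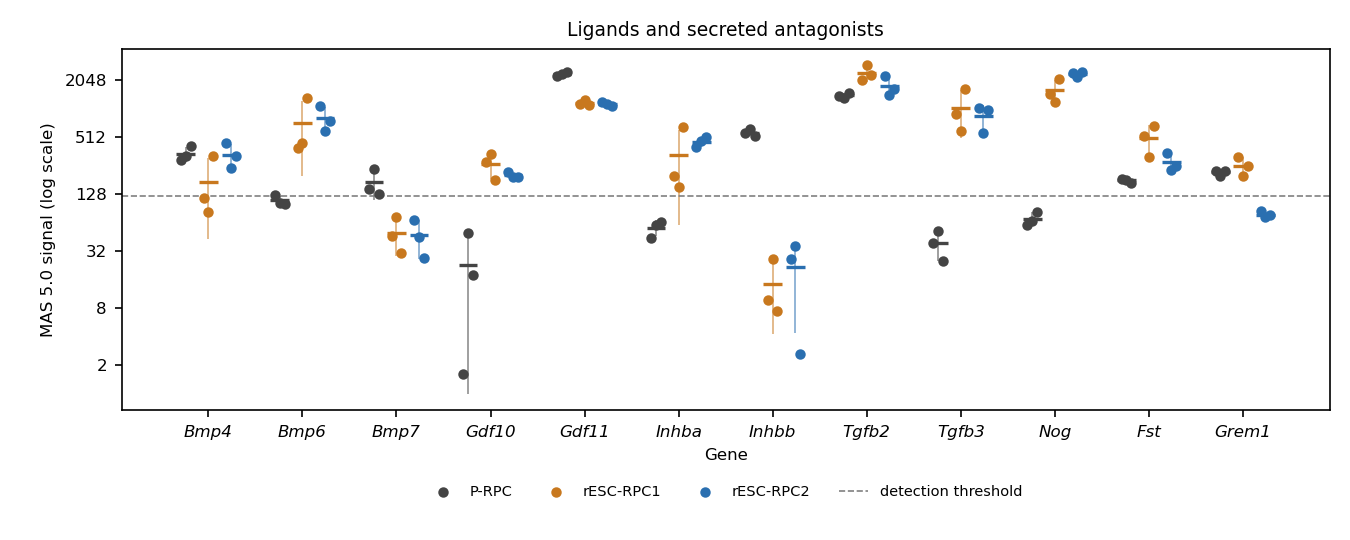
MAS5 signal (vertical axis, log scale) of 12 ligand and antagonist genes on each array, with points for arrays, thick bars for the mean and thin lines for the SD of 3 arrays, cut at a signal of 1. Nog and Tgfb3 lie under the detection threshold (dashed, 123) in P-RPC and above it on all 6 culture arrays, Inhbb lies the other way, and Grem1 is under it in rESC-RPC2 alone.

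Among the secreted antagonists, Nog, which encodes noggin, a protein that binds BMPs and blocks their receptor sites, was far higher in both cultures. Its signals were 60.7, 66.2 and 83.0 in P-RPC, 1462, 1200.2 and 2098 in rESC-RPC1 and 2435, 2191 and 2472 in rESC-RPC2. These are increases over P-RPC of at least 12.6-fold in rESC-RPC1 (adjusted p = 5.04e-08) and 19.3-fold in rESC-RPC2 (1.94e-08). All rESC-RPC2 arrays were above all rESC-RPC1 arrays, but that change, a log2 fold change of 0.61 ± 0.19 (SE, adjusted p = 0.0222), was under the 2-fold limit.

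Fst, which encodes follistatin, an activin-binding protein, had signals of 186, 178 and 168 in P-RPC, 524, 317 and 663 in rESC-RPC1 and 343, 229 and 254 in rESC-RPC2. It was called higher in rESC-RPC1 (log2 fold change 1.43 ± 0.25 (SE), adjusted p = 0.00061). In rESC-RPC2 against P-RPC the change was 0.61 ± 0.25 (0.0519) and not called. Without rESC-RPC1 replicate 2, the lowest array of that group, Fst was also called lower in rESC-RPC2 than in rESC-RPC1 (-1.12, 0.000734), where it was -0.82 ± 0.25 (0.0198) with all arrays.

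Grem1, which encodes the BMP antagonist gremlin, was called lower in rESC-RPC2 alone. Signals were 224, 197 and 226 in P-RPC, 312, 196 and 251 in rESC-RPC1 and 83.7, 72.5 and 76.9 in rESC-RPC2. All rESC-RPC2 arrays were under the threshold, and P-RPC and rESC-RPC1 overlapped. Grem1 in rESC-RPC2 was at least 1.75-fold below P-RPC (adjusted p = 8.25e-05) and at least 2.03-fold below rESC-RPC1 (6.65e-05), while rESC-RPC1 and P-RPC differed by a log2 fold change of 0.21, with a 95% interval from -0.22 to 0.64. Chrd, the fourth antagonist gene, did not reach the threshold on any array, with signals from 10.5 to 104.

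The 6 matrix and latency genes were all called lower in rESC-RPC2 than in rESC-RPC1, and 4 of them were called higher in rESC-RPC1 when compared with P-RPC. Ltbp3, whose product tethers latent TGF-beta to the matrix, had signals of 242, 352 and 365 in P-RPC, 1528, 1455 and 1514 in rESC-RPC1 and 334, 393 and 283 in rESC-RPC2. rESC-RPC1 was above P-RPC (log2 fold change 2.25 ± 0.17 (SE), adjusted p = 1.95e-06) and rESC-RPC2 below rESC-RPC1 (-2.17 ± 0.17, 6.9e-06). P-RPC and rESC-RPC2 overlapped, at a log2 fold change of 0.09 with a 95% interval from -0.29 to 0.46.

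Tgfbi, which encodes a matrix protein named for its induction by TGF-beta, had signals of 102, 97.1 and 72.6 in P-RPC, 978, 277 and 732 in rESC-RPC1 and 52.0, 86.8 and 34.5 in rESC-RPC2. It was detected in rESC-RPC1 alone, at least 4.76-fold above P-RPC (adjusted p = 0.000493) and above rESC-RPC2 (0.000166). Bmp1, which despite its name encodes a procollagen protease that also cleaves chordin, had signals of 263, 223 and 242 in P-RPC, 702, 722 and 629 in rESC-RPC1 and 320.1, 314 and 206 in rESC-RPC2. Its log2 fold change was 1.50 ± 0.17 for rESC-RPC1 over P-RPC (SE, adjusted p = 3.4e-05) and -1.31 ± 0.17 for rESC-RPC2 over rESC-RPC1 (0.000148), and P-RPC and rESC-RPC2 overlapped.

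Ltbp2, a relative of the latent binding protein genes that acts mainly in microfibrils, was the matrix gene called higher in both cultures. Its signals were 79.9, 36.6 and 47.1 in P-RPC, 498, 377 and 1222 in rESC-RPC1 and 229, 161 and 271 in rESC-RPC2. The groups did not overlap, and the increase over P-RPC was at least 4.99-fold in rESC-RPC1 (adjusted p = 4.64e-05) and 1.76-fold in rESC-RPC2 (0.00163). Between the cultures the log2 fold change was -1.50 ± 0.42 (SE, adjusted p = 0.0139). It was -1.01 (0.0315) without rESC-RPC1 replicate 3, the high array, and was not called without rESC-RPC2 replicate 2 (-1.29, 0.0546) or by the methods' t-test.

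Ltbp1 and Ltbp4 were called between the cultures only. Ltbp1 had signals of 748, 755 and 909 in P-RPC, 1619, 919 and 1832 in rESC-RPC1 and 607, 563 and 489 in rESC-RPC2, and Ltbp4 had 189.8, 169 and 196, then 356, 289 and 347, then 110.2, 162 and 152. For both genes the 3 groups did not overlap, in the order rESC-RPC1, P-RPC, rESC-RPC2. Between the cultures the log2 fold change was -1.34 ± 0.22 (SE, adjusted p = 0.00065) for Ltbp1 and -1.24 ± 0.18 (0.000282) for Ltbp4. Against P-RPC, both were under the 2-fold limit in rESC-RPC1, at 0.80 ± 0.22 (0.00943) and 0.83 ± 0.18 (0.00223), though Ltbp1 was called without rESC-RPC1 replicate 2 (1.11, 3.94e-05).

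**Figure D4:**
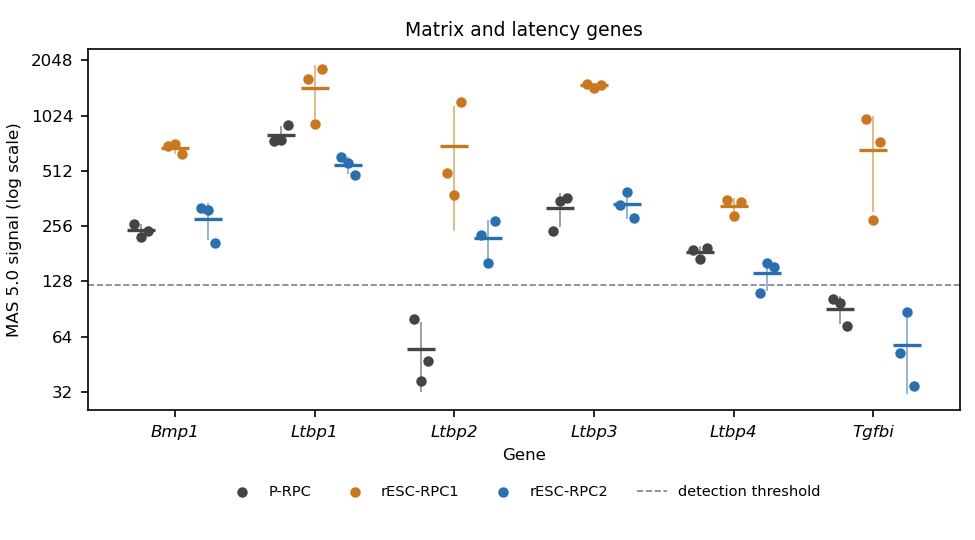
MAS5 signal (vertical axis, log scale) of the 6 matrix and latency genes on each array, with points for arrays, thick bars for the mean and thin lines for the SD of 3 arrays. For each gene the 3 rESC-RPC1 arrays lie above all rESC-RPC2 arrays, and for Tgfbi they alone lie above the detection threshold (dashed, 123).

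Markers of mesenchyme and smooth muscle moved with the matrix and latency genes in rESC-RPC1 against P-RPC and between the cultures. In rESC-RPC2 against P-RPC they parted: most markers were called higher, while of the 6 genes 1, Ltbp2, was called higher and 5 were not called. Of 17 on the array, 13 were tested (Col6a3 and Prrx1 through rESC-RPC1 alone), and 11 were called higher and 0 lower in rESC-RPC1 against P-RPC, 8 higher and 2 lower in rESC-RPC2 against P-RPC, and 0 higher and 8 lower in rESC-RPC2 against rESC-RPC1. Their summed signal ran from 1896 to 2079 in P-RPC, from 28110 to 64300 in rESC-RPC1 and from 15550 to 26360 in rESC-RPC2. Of the defining markers, Dcn and Twist1 did not reach the threshold on any array and Lum on no culture array, while Col1a1, Col1a2, Col3a1, Acta2 and Tagln were detected on all 6. Within rESC-RPC1 the list was highest on replicate 3 and lowest on replicate 2, at mean log2 signals of 9.27 and 8.62, and of the 14 genes called higher there against P-RPC, the same order held for Fst, Inhba, Ltbp2, Nog, Tgfb1i1 and Tgfb3 and not for the others. The part of such cells in the results was not tested.

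The receptor genes moved less. Acvr2b, an activin type II receptor gene, had signals of 1071, 1031 and 1033 in P-RPC, 364, 436 and 274 in rESC-RPC1 and 574, 596 and 673 in rESC-RPC2. The 3 groups did not overlap, and Acvr2b was called lower in rESC-RPC1, compared with P-RPC (log2 fold change -1.57 ± 0.15 (SE), adjusted p = 1.15e-05). In rESC-RPC2 it was -0.77 ± 0.15 (0.00134), under the 2-fold limit.

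Acvr2a, the other activin type II receptor gene, went up rather than down, with signals of 252, 350.3 and 343 in P-RPC, 503, 489 and 467 in rESC-RPC1 and 651, 571 and 696 in rESC-RPC2. Against P-RPC it was called higher in rESC-RPC2 (log2 fold change 1.03 ± 0.14 (SE), adjusted p = 0.000117), close to the 2-fold limit, and a pseudocount of 16 (0.99) or the loss of P-RPC replicate 1 (0.88) or rESC-RPC2 replicate 3 (0.97) took it under that limit. In rESC-RPC1 it was 0.64 ± 0.14 (0.00281).

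Bambi, which encodes a receptor-like protein without a kinase that dampens TGF-beta and BMP signals and is itself known as a BMP target, was lower in both cultures. Its signals were 699.9, 730.2 and 809 in P-RPC, 265, 378 and 280.4 in rESC-RPC1 and 203, 269.8 and 305 in rESC-RPC2. Its log2 fold change was -1.29 ± 0.18 (SE, adjusted p = 0.000129) in rESC-RPC1 and -1.54 ± 0.18 (3.29e-05) in rESC-RPC2, and the cultures overlapped each other.

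Of the type I receptor genes, Tgfbr1, Bmpr1a and Acvr1 were detected on every array and not called, as was Bmpr2, while Acvr1c and Acvrl1 did not reach the threshold on any array. Tgfbr1, the TGF-beta type I receptor gene, had a signal of 4999 ± 341 in P-RPC, and of 2829 ± 155 and 2970.2 ± 149 in rESC-RPC1 and rESC-RPC2 (mean ± SD, n = 3 each). Its log2 fold change was -0.82 ± 0.077 (SE, adjusted p = 8.67e-06) and -0.75 ± 0.077 (1.44e-05), with no overlap between P-RPC and the cultures but under the 2-fold limit. Bmpr1a, a BMP type I receptor gene, was 427 ± 87.8, 770.5 ± 75.2 and 612 ± 64.4, at log2 fold changes against P-RPC of 0.87 ± 0.16 (0.000886) and 0.54 ± 0.16 (0.0134). Bmpr2, the BMP type II receptor gene, overlapped in P-RPC and both cultures, with 95% intervals of the log2 fold change from -0.16 to 0.52 and from -0.50 to 0.17. Acvr1, a BMP and activin type I receptor gene, passed the test of p but not the 2-fold limit, at 0.61 ± 0.12 (0.00136) and 0.33 ± 0.12 (0.0333).

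Among the Smads, Smad9 alone was called in both cultures. Its signals were 77.7, 91.2 and 89.2 in P-RPC, 406, 487 and 393 in rESC-RPC1 and 421, 662 and 807 in rESC-RPC2. P-RPC was under the threshold throughout, and the increase over it was at least 3.48-fold in rESC-RPC1 (adjusted p = 8.67e-06) and 4.96-fold in rESC-RPC2 (1.91e-06). Smad1 and Smad5, which carry the same signal, were detected everywhere and not called. Smad1 had a signal of 2542 ± 73.9 in P-RPC, and of 2605 ± 116 and 3296 ± 19.4 in rESC-RPC1 and rESC-RPC2, and its log2 fold change was 0.03 (95% interval from -0.11 to 0.18) and 0.38 (from 0.23 to 0.52) against P-RPC. Smad5 was 2006 ± 121, 2179.9 ± 259.6 and 1739 ± 145 on its brightest probe set, but another of its 4 probe sets was called lower in rESC-RPC1, at a log2 fold change of -1.06 (adjusted p = 0.000118), so its probe sets disagree.

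The Smads of the TGF-beta and activin branch and the shared Smad stayed within the 2-fold limit. In rESC-RPC1 and rESC-RPC2 against P-RPC, the log2 fold changes were -0.45 ± 0.13 (SE, adjusted p = 0.012) and 0.08 ± 0.13 (0.606) for Smad2, 0.67 ± 0.16 (0.00483) and 0.06 ± 0.16 (0.762) for Smad3, and -0.28 ± 0.12 (0.0679) and -0.68 ± 0.12 (0.000592) for Smad4.

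Of the inhibitory Smads, Smad6 was not called, with signals from 137 to 254 over all arrays. Smad7 had signals of 358, 361 and 419 in P-RPC, 325, 216 and 393 in rESC-RPC1 and 104, 232 and 273 in rESC-RPC2. Against P-RPC it was called lower in rESC-RPC2 (log2 fold change -1.01 ± 0.33 (SE), adjusted p = 0.0212). That call rested on rESC-RPC2 replicate 1, without which the change was -0.59 (0.0559), and was lost without P-RPC replicate 3 too (-0.94, 0.067). In all, 7 of 20 alternatives ended it. The ubiquitin ligase genes Smurf1 and Smurf2 were not called, at log2 fold changes of 0.72 ± 0.19 (0.0076) and 0.83 ± 0.19 (0.00325) for Smurf1 and 0.11 ± 0.10 (0.395) and -0.30 ± 0.10 (0.0262) for Smurf2.

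The Id genes encode helix-loop-helix proteins that lack a DNA-binding region and so block their partners, and they did not move alike. Id3 had signals of 1938, 1988 and 2573 in P-RPC, 8440.3, 7785 and 8409 in rESC-RPC1 and 6691, 8632 and 9008 in rESC-RPC2. Its log2 fold change was 1.93 ± 0.13 (SE, adjusted p = 8.16e-07) and 1.90 ± 0.13 (8.26e-07), and all 6 culture arrays were more than 2-fold above every P-RPC array. Between the cultures Id3 differed by -0.03, with a 95% interval from -0.32 to 0.26.

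Id4 had signals of 1492, 1985 and 1511 in P-RPC, 7573, 9182 and 4748 in rESC-RPC1 and 3734, 4202 and 3618 in rESC-RPC2. It was higher in rESC-RPC1 (log2 fold change 2.07 ± 0.21 (SE), adjusted p = 1.36e-05) and in rESC-RPC2 (1.22 ± 0.21, 0.000468), and the 3 groups did not overlap. Between the cultures it was -0.85 ± 0.21 (0.00667) and not called on this probe set, while 2 of its other 3 probe sets were called lower in rESC-RPC2, at -1.37 (0.00295) and -1.49 (0.000919). Without rESC-RPC1 replicate 3 this probe set was called too (-1.12, 9.41e-05). Astrocyte and radial glia markers moved with Id4 in rESC-RPC1 against P-RPC and between the cultures, and were split in rESC-RPC2 against P-RPC. Of 12 on the array, 10 were tested (S100b through rESC-RPC1 alone). In rESC-RPC1 against P-RPC 7 were called higher and 0 lower. The counts were 4 and 3 in rESC-RPC2 against P-RPC, at a median log2 fold change of 0.10, and 0 and 6 between the cultures. Their summed signal ran from 27640 to 32750 in P-RPC, from 54690 to 86630 in rESC-RPC1 and from 43430 to 46350 in rESC-RPC2, with Aldh1l1 and Slc1a2 under the threshold on every array, and within rESC-RPC1 both they and Id4 were highest on replicate 2 and lowest on replicate 3. Their part in the result was not tested.

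Id2 and Id1 were closer to P-RPC. Id2 had signals of 2354, 2635 and 2371 in P-RPC, 3809, 4341 and 2726 in rESC-RPC1 and 4373, 5392 and 5199 in rESC-RPC2. It was called higher in rESC-RPC2 (log2 fold change 1.02 ± 0.15 (SE), adjusted p = 0.000199), at the 2-fold limit, and quantile normalization (1.00) or leaving out P-RPC replicate 1 or 3 or rESC-RPC2 replicate 2 or 3 (0.96 to 1.00) took it just under that limit, though its other probe set gave 1.50 (2.75e-05). Id1 had signals of 3644, 3387 and 3850.5 in P-RPC, 3720.1, 4001 and 3252 in rESC-RPC1 and 3914, 4127 and 4974 in rESC-RPC2. P-RPC and rESC-RPC1 overlapped, at a log2 fold change of 0.01 with a 95% interval from -0.23 to 0.25, and rESC-RPC2 was at 0.25, from 0.02 to 0.49.

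**Figure D5:**
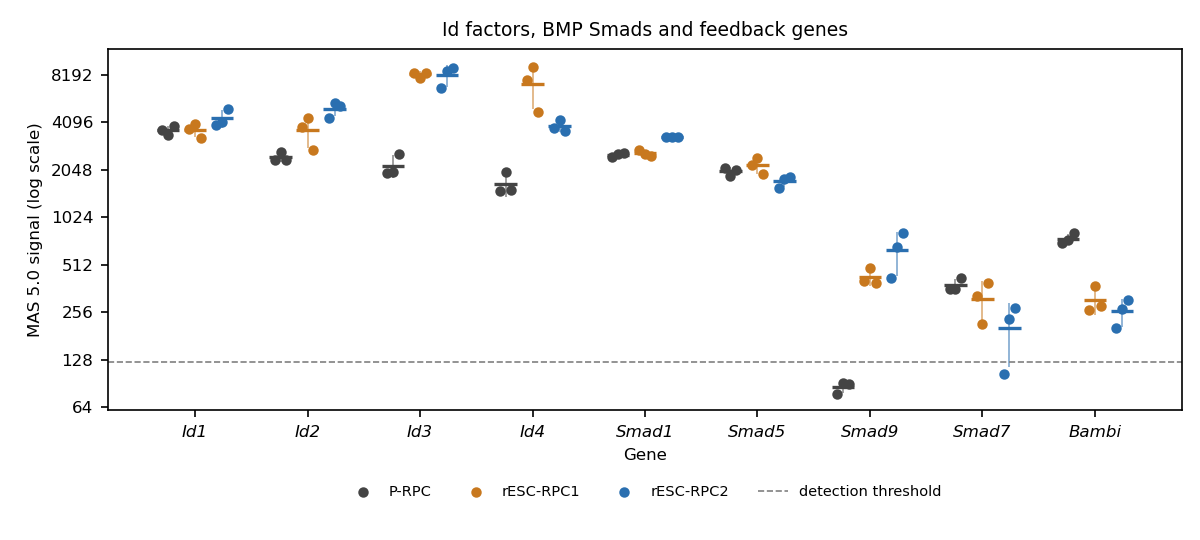
MAS5 signal (vertical axis, log scale) of the Id genes, the BMP Smads, Smad7 and Bambi on each array, with points for arrays, thick bars for the mean and thin lines for the SD of 3 arrays. Id3, Id4 and Smad9 are higher on all 6 culture arrays than in P-RPC, Bambi is lower, and Id1 overlaps between P-RPC and rESC-RPC1.

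3 genes met the rule by symbol and are not core pathway genes. Tgfb1i1, which encodes the focal adhesion adaptor Hic-5, had signals of 513, 697 and 544 in P-RPC, 1442, 982 and 1732 in rESC-RPC1 and 1765, 1449 and 1384 in rESC-RPC2, and was higher in both cultures (log2 fold change 1.22 ± 0.20 (SE), adjusted p = 0.000401, and 1.40 ± 0.20, 0.000146). Bmp2k, a kinase gene named for its induction by BMP2, was called lower in rESC-RPC2 than in rESC-RPC1 (-1.05 ± 0.19, 0.00134), with signals of 1178, 1236 and 758 against 615, 408 and 496, but its other probe set gave 0.43 (0.0939), and 6 of 20 alternatives ended the call, among them the loss of rESC-RPC1 replicate 1 (-0.96) or 2 (-0.92) or rESC-RPC2 replicate 2 (-0.90). Tgfbrap1, a gene for a protein that associates with TGF-beta receptors, was not called.

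The 12 genes that did not pass the filter were Acvr1c, Acvrl1, Bmp15, Bmp3, Bmp5, Bmp8a, Chrd, Gdf15, Gdf6, Gdf9, Tgfb1 and Tgfbr3. Of these, Gdf15 alone reached the threshold, on rESC-RPC1 replicate 3 with a signal of 198. Tgfb1, which encodes the best known TGF-beta ligand, had signals from 2.05 to 61.9 on its probe set, so no level can be given for it here.

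Other genes of the pathway were read from lists outside the symbol rule, and each list count below stands beside the share of all genes tested. Of all genes tested, 21.5% were called in rESC-RPC1 against P-RPC, 12.0% higher and 9.56% lower. In rESC-RPC2 against P-RPC 23.7% were called, 10.7% higher and 13.0% lower. Between the cultures it was 14.3%, 5.02% higher and 9.25% lower. The median log2 fold changes over all genes were -0.01, -0.02 and -0.03. Of 18 tested extracellular modulators, 10 were called higher and 1 lower in rESC-RPC1 against P-RPC, 7 and 3 in rESC-RPC2 against P-RPC, and 2 and 7 in rESC-RPC2 against rESC-RPC1, at median log2 fold changes of 1.16, 0.37 and -0.57. Fstl4 passed the filter through P-RPC alone and Bgn through rESC-RPC1 alone. The BMP co-receptor genes Rgma and Rgmb were both higher in rESC-RPC1 (log2 fold change 2.38 ± 0.19 (SE), adjusted p = 2.63e-06, and 1.47 ± 0.16, 2.36e-05) and in rESC-RPC2 (1.51 ± 0.19, 5.67e-05, and 2.22 ± 0.16, 1.18e-06). Fstl1, which encodes a follistatin-like protein, rose to 13065 ± 3600 (mean ± SD, n = 3) in rESC-RPC1 and 10677 ± 2134 in rESC-RPC2 from 2312 ± 162.5 in P-RPC (2.08e-06 and 4.19e-06). Itgav, the gene of the alpha V integrin that helps release latent TGF-beta, was lower in rESC-RPC2 than in rESC-RPC1 (-1.67 ± 0.095, 1.59e-06), as the latency genes were.

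Of 27 tested intracellular regulators, 2 differed from P-RPC by a call in rESC-RPC1 and 3 in rESC-RPC2. Between the cultures 4 were called, all lower. The shares of all genes called were 21.5%, 23.7% and 14.3% in the same order. Tgif1, a corepressor of Smad2 and Smad3, was lower in rESC-RPC2 than in rESC-RPC1 (log2 fold change -2.74 ± 0.14 (SE), adjusted p = 1.08e-06) and than in P-RPC (-1.92 ± 0.14, 1.18e-06). Skil, another corepressor and a TGF-beta target, fell in rESC-RPC1 relative to P-RPC (-1.16 ± 0.15, 7.29e-05). Runx1, a transcription factor that partners Smads, was under the threshold in P-RPC and rose by at least 15.4-fold in rESC-RPC1 (1.52e-05) and 2.47-fold in rESC-RPC2 (0.00407), and Tob1, which restrains BMP Smads, was lower in rESC-RPC2 than in rESC-RPC1 (-1.22 ± 0.072, 1.96e-06).

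Known TGF-beta response genes were mostly called higher in the cultures. Of 21 tested TGF-beta response genes, 18 were called higher and 1 lower in rESC-RPC1 against P-RPC, 14 and 3 in rESC-RPC2 against P-RPC, and 2 and 9 in rESC-RPC2 against rESC-RPC1, at median log2 fold changes of 3.43, 2.41 and -0.62. 7 of these genes are also on the mesenchyme and smooth muscle list, and that list moved the same way as given above. Ccn1, Tagln, Col3a1, Cnn1 and Lox reached the threshold on no P-RPC array and could come out only higher against P-RPC. Col1a2 and Col3a1, which encode fibrillar collagens, Lox, which encodes the enzyme that crosslinks them, and Timp3, a matrix protease inhibitor, were called higher in both cultures. Those called lower against P-RPC were Skil in rESC-RPC1 (log2 fold change -1.16) and Pmepa1 (-1.63), Klf10 (-1.10) and Postn in rESC-RPC2. Postn reached the threshold on 1 P-RPC array and on no rESC-RPC2 array. That call rests on signals near background, and no bound can be given for it. Lox, for one, averaged 94.5 ± 18.2 in P-RPC (SD over 3 arrays), and rose by at least 65.3-fold in rESC-RPC1 (adjusted p = 6.71e-08) and 31.8-fold in rESC-RPC2 (1.94e-07).

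Of 10 tested BMP response genes outside the Id family, 2 were called higher and 3 lower in rESC-RPC1 against P-RPC, 1 and 5 in rESC-RPC2 against P-RPC, and 0 and 3 in rESC-RPC2 against rESC-RPC1, at medians of -0.15, -0.73 and -0.60. Tbx3 and Tbx5 passed the filter through P-RPC and Msx1 through rESC-RPC1 alone, so these 3 had to differ. The Id genes, themselves known BMP targets, are given above, with 2 of 4 higher in rESC-RPC1, 3 of 4 in rESC-RPC2 and 0 lower. Dlx5, a homeobox gene, was under the threshold in P-RPC and rose by at least 2.68-fold in rESC-RPC1 (adjusted p = 3.57e-07) and 5.06-fold in rESC-RPC2 (8.46e-08). Tbx3, a T-box gene of the dorsal retina, went the other way, by at least 7.84-fold in both (1.57e-07 and 2.35e-07). Hey2 and Zfp423 were lower in rESC-RPC2 than in P-RPC, at log2 fold changes of -1.35 ± 0.13 (SE, 8.87e-06) and -1.09 ± 0.10 (7.12e-06).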

How the data were processed

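The authors hybridized labelled RNA to Affymetrix Rat Genome 230 2.0 arrays, and the deposited table holds linear intensity values (MAS5 signals) after background removal and scaling of each array by the authors. Each probe set was named by the platform annotation. 57 control probe sets were left out, as were probe sets with several symbols or none, which left 20826. Here signals under 1 were raised to 1, log2 was taken, 1 probe set per gene was kept and genes with at least 3 of 9 arrays at or above the median signal of 123 were tested. limma 3.58.1 (R 4.3.3) with a variance trend was fitted on all 9 arrays with 1 mean per group, two-sided, with Benjamini-Hochberg adjustment over all 9956 genes, and was tested on simulated data. Depth has no meaning for arrays, and 3 arrays per group limit the precision. The genes and lists were chosen with earlier results of these data known. The text gives every array's value for genes called in any comparison and group values or intervals for well known genes that were not. From each other list it gives up to 4 called genes, those of smallest adjusted p, and also the TGF-beta response genes called lower against P-RPC. Where all arrays of a group were under the threshold, a bound replaces the fold change. Equal replicate numbers showed no consistent pairing: deviations from group means correlated at -0.04 to 0.27, and 1 of 9 pairs was over 0.1. That pair was replicate 2 of the 2 cultures. At unlike numbers, rESC-RPC1 replicate 3 and rESC-RPC2 replicate 1 correlated at 0.31. Whether culture arrays shared a differentiation run is not stated and was not tested, and the main fit used no pairing. Alternatives were 2 scalings, 2 filters, 2 treatments of low values, no variance trend, the methods' t-test, a replicate block, the mean of all probe sets, each array left out and, added after the data were seen, a fit over probe sets. Promoters came from a RefSeq table, build GRCr8. All 55 genes were found in the matching RefSeq gene table by their identifiers.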

Additional observations from a re-analysis of the deposited data

How the results depend on the processing

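Of 47 calls of a gene in a comparison, 35 held under every one of 20 alternatives in which the gene could be tested, and none reversed direction. Leaving out 1 array gave 16 to 20 called genes in rESC-RPC1 against P-RPC, 14 to 18 in rESC-RPC2 against P-RPC and 6 to 10 in rESC-RPC2 against rESC-RPC1. The other 12 settings gave 17 to 27, 15 to 24 and 6 to 11, the highest from the fit over 59 probe sets, added after the data were seen. With the replicate number as a block, the counts were 20, 18 and 9, as without it. Calls lost under some settings were those of Bmp4 (6 in rESC-RPC1 against P-RPC and 11 between the cultures), Smad7 (7), Bmp2k (6), Id2 (5), Gdf11 (4 and 1), Acvr2a (3), Ltbp2 between the cultures (3), and Gdf10 and Inhba (1 each, the methods' t-test after adjustment), and the cause was not tested. Without the filter, Acvrl1, Chrd and Gdf15 were called on signals near background. Signals under the threshold limit Nog, Tgfb3, Inhbb and the other genes given as bounds.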

Other observations

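Genes of the dorsal and ventral retina, which BMP signaling is known to pattern, were also read. Of 4 tested dorsal genes, 3 were called lower and 0 higher in both cultures against P-RPC, but Tbx3 and Tbx5 passed the filter through P-RPC alone and could come out lower only. Tbx5, a dorsal T-box gene, had signals of 331, 326 and 449 in P-RPC and from 1.00 to 22.3 on the 6 culture arrays, a fall of at least 2.98-fold in rESC-RPC1 (limma adjusted p = 0.00104) and in rESC-RPC2 (0.000443). Aldh1a1, a dorsal retinoic acid synthesis gene, fell from a mean of 8307 ± 996 (SD, n = 3) in P-RPC to 183 ± 45.3 in rESC-RPC1 (1.14e-07) and to under the threshold in rESC-RPC2, at least 67.5-fold lower (1.22e-08).

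Of 3 tested ventral genes, 2 were called lower in both cultures, of which Vax2 passed the filter through P-RPC alone and could come out lower only. Vax2, a ventral homeobox gene, was 220.0 ± 0.962 (mean ± SD, n = 3) in P-RPC and under the threshold on all 6 culture arrays, a fall of at least 1.79-fold in rESC-RPC1 (adjusted p = 0.00117) and in rESC-RPC2 (0.00374). Aldh1a3, a ventral retinoic acid synthesis gene, had a log2 fold change of -2.15 ± 0.42 (SE, 0.00124) in rESC-RPC1, and fell by at least 4.30-fold in rESC-RPC2 (0.000158). Ephb3, a ventral ephrin receptor gene, rose in rESC-RPC1 relative to P-RPC (1.65 ± 0.13, 2.23e-06) and did not pass the test in rESC-RPC2 (-0.05, with a standard error of 0.13).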
